A study of Rattus norvegicus with 100 samples.

Results

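Complement is a cascade of blood and tissue proteins that marks and lyses cells and draws in white blood cells. The classical pathway starts when C1q binds a target and its partner proteases C1r and C1s cut the next components. The alternative pathway uses the protease factor D (Cfd), and both pathways meet at C3, whose cleavage fragments coat the target, while C1 inhibitor (Serping1) and decay-accelerating factor (Cd55) hold the cascade in check. In the rodent uterus, C3 is a known estrogen-induced product of the epithelium, so the gene has long been read in estrogen assays.

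The 6 genes C1qb, C1s, Cfd, C3, Serping1 and Cd55 were chosen by name, with earlier results of these data known. Each was read through every probe set that the array holds for it, in all groups and times. They are 6 of 10411 genes with a probe set of their own, and 7 of 15923 probe sets, since Cd55 has 2. The series follows the uterotrophic assay, in which growth of the uterus in young female rats reports estrogen action, after ethinylestradiol (EE), a synthetic estrogen. Transcripts were measured with 100 RAE230A arrays (Affymetrix), of which 70 held uterus and 30 pituitary gland RNA. The uterus had 14 groups of 5 arrays, Control and EE at 2, 4, 8, 24, 28, 48 and 72 h, and the pituitary 10 groups of 3 arrays, Control and EE at 4, 8, 24, 48 and 72 h. All rats, treated or not, were immature females. The sources used here do not give strain, age, dose, route, the substance given to controls or the schedule of dosing, nor do they say whether each array holds the RNA of 1 animal, so p-values measure the spread between arrays, which may be technical.

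Values are linear intensities per probe set as deposited, and 37.2% of all cells of the table were blank, for a reason that the sources do not give. Each array had values for 9318 to 10677 probe sets, and array medians ran from 94.6 to 108 in uterus and from 103 to 110 in pituitary. The summed intensity of 14 smooth muscle genes was 15178 to 25698 in uterus and 334 to 1406 in pituitary, and that of 10 pituitary hormone cell genes was 20 to 835 in uterus and 21954 to 32473 in pituitary, so both tissues carried the markers of their labels. In the pituitary, 3 arrays (Control 4 h array 17, EE 4 h array 23 and EE 24 h array 44) stood apart by high Serping1, C1s and stroma genes, and results that rest on them are given with and without them. Some measures of array quality differed between EE and control in uterus before adjustment, and none passed after it. The log2 difference between the 3′ and 5′ control probe sets of Actb, a sign of RNA quality, was 0.225 in EE against 0.510 in controls at 8 h, 0.197 against 0.441 at 28 h and 0.248 against 0.615 at 48 h (exact permutation test, two-sided, p = 0.00794 each, the smallest that 5 against 5 arrays allow, adjusted p = 0.0544 over all such tests). The same test gave the same p for the blank share at 8 h, 38.2% in EE against 34.5% in controls. It also did so for the array median at 24 h (96.8 against 102.0) and 72 h (98.4 against 102.6). At 48 h the Gapdh difference did as well (0.341 against 0.550). The part of these differences in the results below was not tested. Bulk RNA cannot tell fewer cells of a type from less RNA per cell.

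Differences are given as EE minus control of log2(intensity + 30.4), with standard errors (SE) from a limma fit of all arrays of a tissue, and a difference passed at an adjusted p under 0.05 over all genes tested. Uterus tests needed 3 or more of the 5 arrays of both groups to have a value, and pituitary tests 2 or more of 3. In uterus 42 comparisons were possible and 37 could be tested, of which 8 were higher after EE, 12 lower and 17 did not pass, and 5 lacked values. EE moved much of the array at these times, so the count has a high background: 6.39% of all tested genes passed at 2 h, 58% at 4 h, 64.2% at 8 h, 59.2% at 24 h, 62.8% at 28 h, 57.2% at 48 h and 60.1% at 72 h. Those higher after EE were 4.01%, 23.6%, 28.7%, 24.8%, 28.4%, 24.2% and 23.4% of all genes at these times, and those lower 2.38%, 34.5%, 35.5%, 34.4%, 34.4%, 33% and 36.8%. Members passed in 0 of 5, 3 of 5, 3 of 6, 3 of 6, 3 of 4, 5 of 6 and 3 of 5 tests at these times, which is near that background. At 2 h, where limma passed none, 1 member (C1qb) had an unadjusted p under 0.05.

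**Figure D1:**
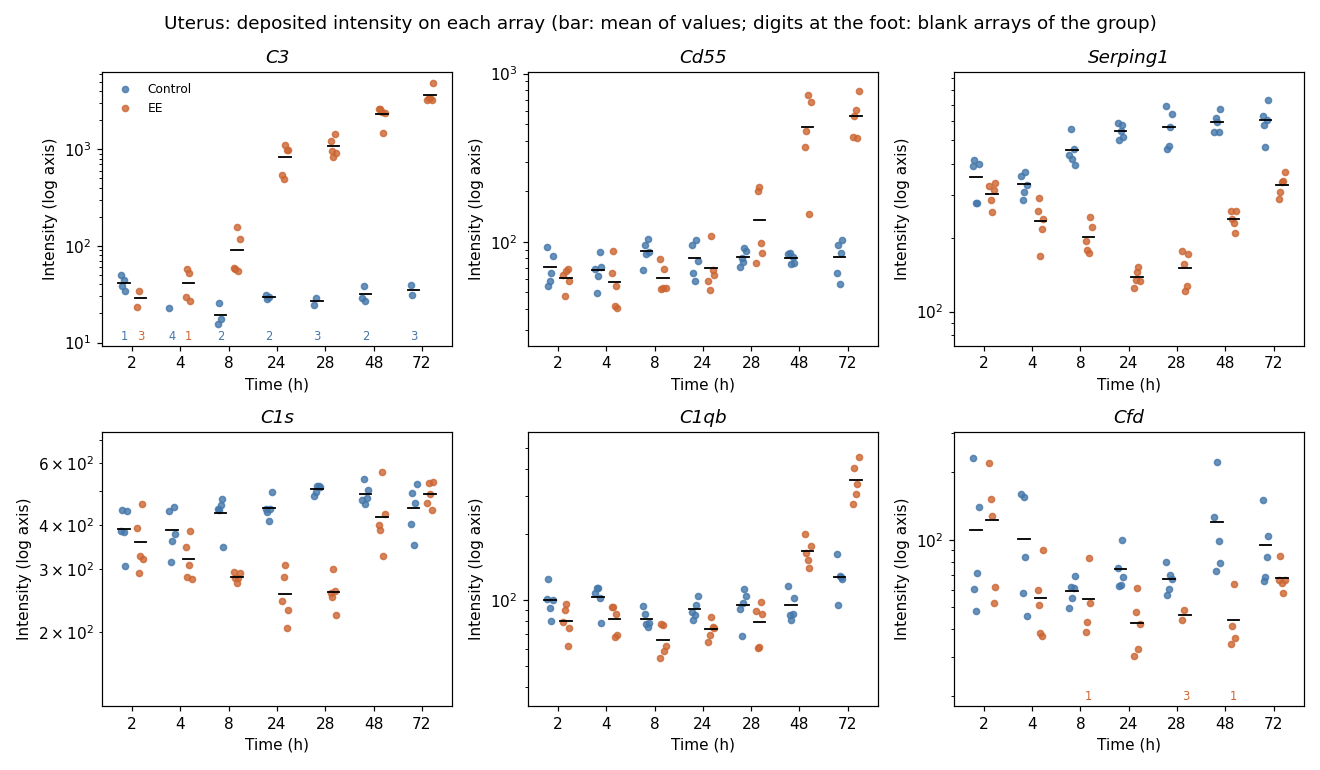
Deposited intensity (log axis) on each uterus array at each time for the 6 genes, Control in blue and EE in orange, with times evenly spaced, the group mean as a bar and the number of blank arrays at the foot. C3 after EE climbs from 23.1 to 4871 while its controls stay at or below 49.9 or are blank, and Serping1 after EE lies below its controls from 8 h to 72 h on every array.

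C1qb encodes a chain of C1q, the recognition unit of the classical pathway, which tissue macrophages make. It has the gene ID 29687 and 1 probe set, and lies on chromosome 5 (GRCr8, 154402276 to 154407827). Uterus controls ran from 68.3 to 164 and no uterus array was blank. EE arrays stayed at 54.6 to 98.2 through 28 h. At 48 h the 5 EE arrays read 201, 165, 153, 140 and 177 and the controls 116, 85.7, 81.3, 86.7 and 103, and at 72 h the EE arrays read 275, 403, 307, 340 and 453 and the controls 164, 94.8, 129, 128 and 125. C1qb rose after EE at both times with no overlap between groups. The difference was 0.66 ± 0.11 at 48 h (limma, adjusted p = 6.46e-07) and 1.28 ± 0.11 at 72 h (adjusted p = 1.01e-15), folds of 1.58 and 2.43 on the (intensity + 30.4) scale. At 4 h C1qb was lower, by a difference of -0.25 ± 0.11 (adjusted p = 0.0445), a call lost without any 1 of 6 single arrays (Control 14, 15, 16 and 17, EE 21 and 24, adjusted p up to 0.127) and after centring arrays (0.0754), quantile normalization (0.129), filling of blanks (0.0513) or an offset of 100 (0.0616). The values of -0.23 at 2 and 8 h, -0.22 at 24 h and -0.19 at 28 h did not pass.

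Macrophage marker genes were higher after EE at 24 and 28 h, where C1qb did not pass, as well as at 48 and 72 h. At 24, 28, 48 and 72 h, 24.8%, 28.4%, 24.2% and 23.4% of all genes were higher. Of the 11 genes of the macrophage list tested, 8 were higher at 24 and at 28 h (median difference 0.51 and 0.50) and 11 at 48 and at 72 h (1.28 and 1.34), against medians of -0.05 and -0.07 over all genes at 48 and 72 h. Its summed intensity over 13 genes was 1144 to 1883 in uterus controls, 4149 to 5222 in EE arrays at 48 h and 4952 to 7802 at 72 h, and none of the 13 was blank on all uterus arrays. Within groups, arrays high in C1qb were high in this list as well. Deviations from the group means correlated with Pearson r = 0.63 and Spearman rho = 0.68 over 70 uterus arrays (permutation p = 1e-05, the smallest that 100000 permutations can give, adjusted p = 2.17e-05 over 13 correlations computed), and r = 0.66 without the 2 arrays farthest from the median of the list. The part of macrophages in the C1qb difference was not tested.

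C1s encodes the classical pathway protease that C1 inhibitor blocks. It has the gene ID 192262 and 1 probe set, and lies on chromosome 4 (GRCr8, 159116549 to 159128736). No array of either tissue was blank. Uterus controls ran from 307 to 540. At 28 h the EE arrays read 257, 251, 302, 261 and 224 and the controls 484, 496, 518, 518 and 515. C1s fell after EE from 4 to 28 h and was back among its controls at 72 h, with no overlap between groups at 8, 24 and 28 h. The difference was -0.25 ± 0.11 at 4 h (limma, adjusted p = 0.0359), -0.55 ± 0.11 at 8 h (7.35e-06), -0.75 ± 0.11 at 24 h (9.56e-09) and -0.90 ± 0.11 at 28 h (4.34e-11). The 4 h call was lost without any 1 of 5 single arrays (Control 14 and 17, EE 20, 21 and 24, adjusted p up to 0.118), after centring (0.0577) and with only the 2 groups in the fit (0.0517). At 48 h the value was -0.22 (adjusted p = 0.0695). That value became -0.32 and passed without EE array 69, which read 565 against 328 to 431 on the other EE arrays of 48 h (adjusted p = 0.0075). At 72 h the difference was 0.13 (adjusted p = 0.275), and 0.24 with a pass after centring (0.0404).

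Cfd encodes factor D, a protease of the alternative pathway and, under the name adipsin, a secreted product of fat cells. It has the gene ID 54249 and 1 probe set, and lies on chromosome 7 (GRCr8, 10463773 to 10465496). Uterus controls had a value on all 35 arrays, from 45.6 to 233. EE arrays ran from 30.2 to 220, with blanks on 5 of 35 arrays, 1 at 8 h, 3 at 28 h and 1 at 48 h. At 48 h the EE arrays read 34.3, 41.2, blank, 63.2 and 36.3 and the controls 126, 72.4, 222, 99.0 and 79.1. Cfd was lower after EE at 48 h, with no overlap among the values present, by a difference of -0.95 ± 0.26 (limma, adjusted p = 0.00149). It was the one test of 6 that Cfd passed. The values were 0.15 at 2 h (adjusted p = 0.791), -0.55 at 4 h (0.0519), -0.11 at 8 h (0.739), -0.52 at 24 h (0.0654) and -0.31 at 72 h (0.277), and 28 h was not tested because of the blanks. Without single arrays the 4 h value passed in 3 of 10 cases and ranged from -0.72 to -0.39.

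The spread of Cfd between arrays of 1 group was large and followed fat cell genes. The arrays highest in Cfd were Control 2 h array 2 (233), Control 48 h array 63 (222) and EE 2 h array 7 (220), and the summed intensity of 14 adipocyte genes on them was 2589, 4152 and 2598. That sum ran from 923 to 4152 in controls and from 572 to 2598 in EE arrays, with Lep blank on all uterus arrays. Of the 9 adipocyte genes tested at 48 h, 4 were lower and 1 higher, with a median difference of -0.62 against -0.05 over all genes. Of all genes 33% were lower and 24.2% higher at that time. Deviations from group means of Cfd and of the adipocyte list correlated with r = 0.89 and rho = 0.83 over 65 arrays (permutation p = 1e-05, adjusted p = 2.17e-05), and r = 0.87 without the 2 farthest arrays. The part of fat tissue on the arrays in the Cfd difference was not tested. Without Control array 63 or any other single array, the 48 h difference of Cfd stayed between -1.07 and -0.74 with an adjusted p of at most 0.0141.

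C3 encodes the component on which all complement pathways converge. It has the gene ID 24232 and 1 probe set, and lies on the minus strand of chromosome 9 (GRCr8, 2174412 to 2201339). The 250 bases before its start are printed because C3 had the largest rise of the members, and the capitals mark matches to a set of motifs searched on both strands. The sequence comes from RefSeq promoters of GRCr8, in which 4 of the 6 members had an entry (C3, Cd55, C1qb and Cfd).

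C3, chr9:2201340-2201589, minus strand: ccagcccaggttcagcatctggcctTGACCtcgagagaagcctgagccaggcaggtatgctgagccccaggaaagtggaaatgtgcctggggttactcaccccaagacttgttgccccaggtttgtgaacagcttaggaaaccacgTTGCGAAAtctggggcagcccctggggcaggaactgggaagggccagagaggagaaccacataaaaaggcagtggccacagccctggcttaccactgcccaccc

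The full estrogen response element, which is GGTCA, any 3 bases and then TGACC, contains the half-site GGTCA on both strands. The full element had no match here, and 0.0239% of 33469 rat promoters of this length hold one. The half-site, held by 35.4% of promoters, had 1 match, 225 to 221 bases before the start and printed as its reverse complement. The C/EBP motif TTGCNNAA, held by 9.22% of promoters, had 1 match, 104 to 97 bases before the start. The AP-1 motif TGANTCA (6.34% of promoters) and the TATA box letters TATAAA (12.9%) had none. A match describes the letters and not binding, and the full element was also not found before Cd55, C1qb or Cfd. The half-site had 1 match before Cd55, 3 before C1qb and 1 before Cfd, so all 4 members with an entry hold it.

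C3 was low or blank in uterus controls. Of 35 control arrays 17 were blank, with 1 of 5 at 2 h, 4 at 4 h, 2 at 8 h, 2 at 24 h, 3 at 28 h, 2 at 48 h and 3 at 72 h. The control values that were present ran from 15.5 to 49.9. After EE, 3 arrays were blank at 2 h and 1 at 4 h, and none later. The comparisons at 4, 28 and 72 h lacked control values and that at 2 h lacked EE values, so they were not tested.

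**Figure D2:**
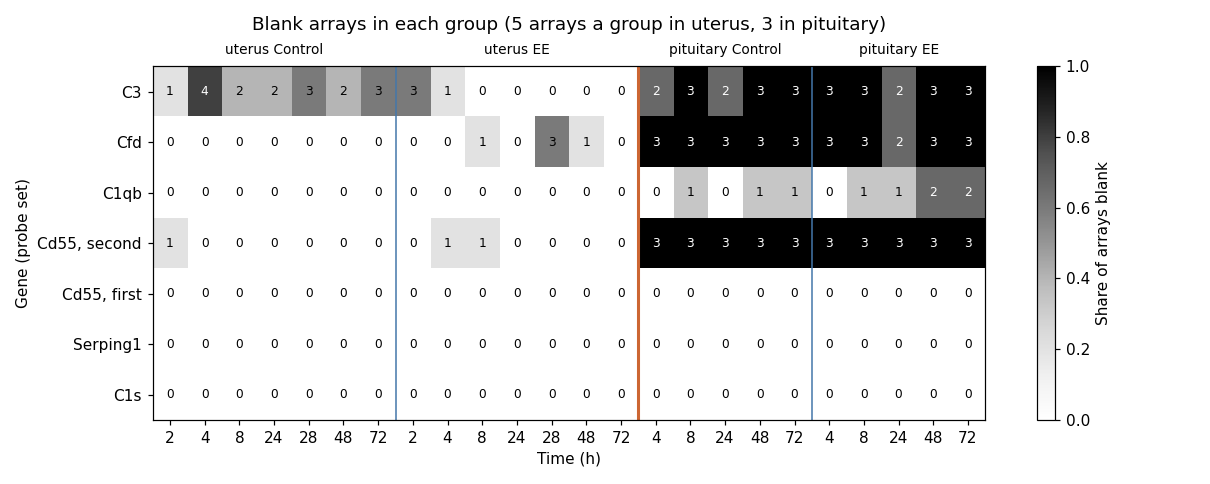
Blank arrays in each group for the 7 probe sets (Cd55 has a first and a second), with the shade giving the share of the 5 uterus or 3 pituitary arrays that are blank and the digit their number. C3 is blank on 17 of 35 uterus control arrays and 4 of 35 uterus EE arrays, and C3, Cfd and the second probe set of Cd55 are blank on 27, 29 and 30 of 30 pituitary arrays.

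C3 climbed after EE. The EE arrays read 29.6, 57.2, 51.9 and 26.8 with 1 blank at 4 h, and 59.7, 58.1, 156, 55.1 and 119 at 8 h, against control values of 15.5, 25.5 and 17.4 at 8 h. At 24 h they read 540, 497, 1109, 986 and 984 against controls of 31.2, 28.1 and 29.4, and at 28 h 1228, 971, 828, 1425 and 920 against 24.4 and 29.1. At 48 h they read 2627, 2623, 2456, 1486 and 2395 against 28.7, 38.9 and 26.8, and at 72 h 3212, 3377, 3379, 3270 and 4871 against 38.9 and 31.2. From 8 h on, all EE values of C3 lay above all control values of their time. At 4 h only 1 control array had a value, 22.8, and the other 4 were blank, so a separation there is not shown.

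The difference of C3 was 1.2 ± 0.22 at 8 h (limma, adjusted p = 9.48e-06), 3.76 ± 0.22 at 24 h (5.99e-18) and 5.22 ± 0.22 at 48 h (1.23e-22), folds of 2.29, 13.6 and 37.3 on the (intensity + 30.4) scale. The size depends on the offset, since the control values of C3 lay near it. The differences of C3 at these times were 2.04, 4.68 and 6.15 with an offset of 1, and 0.64, 2.77 and 4.17 with an offset of 100, and all passed. Where 2 values a group were enough, the difference was 4.25 at 28 h and 5.79 at 72 h, and with blanks filled at 30.4 it was 4.19 and 5.85. The same filling gave 0.21 at 4 h (adjusted p = 0.296) and -0.21 at 2 h (0.548), which did not pass. Each tested time had 3 control values of C3, so leaving out 1 of those arrays removed the test, and the other single arrays left 1.02 to 1.3 at 8 h, 3.64 to 3.92 at 24 h and 5.17 to 5.37 at 48 h.

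Because controls lacked values, the EE groups of consecutive times were also compared with each other, a comparison added after the data were seen. C3 rose by 0.69 ± 0.20 from 4 to 8 h (limma, adjusted p = 0.00711), by 2.84 ± 0.19 from 8 to 24 h (1.85e-16) and by 1.09 ± 0.19 from 28 to 48 h (2.31e-05). From 48 to 72 h it rose by 0.65 ± 0.19 (0.0264), a call lost without EE 48 h array 71 (0.50, adjusted p = 0.136) or EE 72 h array 84 (0.54, 0.117), with an offset of 1 (0.0798) and after quantile normalization (0.143). The step from 4 to 8 h was lost with an offset of 100 (0.0625). The step from 24 to 28 h, 0.42, did not pass. Over the members 14 of 33 such steps passed, 11 of them higher. Of all genes 45.4%, 35.9%, 57.1%, 20%, 31.8% and 10.8% passed in either direction for the 6 steps in order. Those higher were 18.9%, 18.9%, 28.6%, 10.3%, 15.4% and 4.06% of all genes. Members higher were 0 of 5, 1 of 6, 1 of 6, 1 of 5, 5 of 5 and 3 of 6. Marker genes of epithelium rose as well, 8 of 14 tested at 24 h, 12 of 15 at 48 h and 13 of 15 at 72 h. Of all genes 24.8%, 24.2% and 23.4% were higher at these times. The summed intensity of the epithelium list was 2445 to 4216 in controls and 8176 to 11610 in EE arrays at 72 h. Within groups the deviations of C3 from the group means were not shown to follow that list (r = 0.23, rho = 0.19, 48 arrays, permutation, adjusted p = 0.156 for r). The part of epithelium in the C3 difference was not tested.

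Serping1 encodes C1 inhibitor, a serpin that blocks C1r, C1s and the contact system proteases. It has the gene ID 295703 and 1 probe set, and lies on chromosome 3 (GRCr8, 90249410 to 90259299), and no array of either tissue was blank. At 24 h the EE arrays read 124, 134, 145, 152 and 133 and the controls 587, 501, 544, 578 and 516. At 28 h they read 176, 157, 121, 127 and 172 and the controls 689, 463, 472, 569 and 641. Serping1 after EE was below every control array of its time from 8 to 72 h. At 72 h the EE arrays had come up to 288, 307, 339, 343 and 371, still below the controls of 627, 580, 469, 608 and 733.

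The difference of Serping1 was -0.45 ± 0.11 at 4 h (limma, adjusted p = 3.94e-04), -1.06 ± 0.11 at 8 h (7.39e-13) and -1.78 ± 0.11 at 24 h (7.23e-21), then -1.72 ± 0.11 at 28 h (9.52e-21), -1.21 ± 0.11 at 48 h (1.81e-14) and -0.81 ± 0.11 at 72 h (6.03e-09). It was 3.42-fold lower at 24 h on the (intensity + 30.4) scale, the seventh largest fall of all genes tested there (rank 7 of 7084), and ranked 21 of 6991 at 28 h and 38 of 7031 at 48 h. The value of -0.19 at 2 h did not pass (adjusted p = 0.357). Both arms of this difference moved. The control mean was 354 ± 70 (SD, n = 5) at 2 h, 330 ± 36 at 4 h, 455 ± 62 at 8 h, 545 ± 38 at 24 h, 567 ± 100 at 28 h, 594 ± 54 at 48 h and 603 ± 95 at 72 h. The EE mean was 303 ± 32 at 2 h, 138 ± 11 at 24 h, 239 ± 21 at 48 h and 329 ± 32 at 72 h. Leaving out single arrays changed no call of Serping1 at the 7 times.

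Some marker genes of stroma were also lower after EE at times when Serping1 and C1s were. Of 14 stroma genes tested, 7 were lower and 2 higher at 4 h, 8 and 2 at 8 h (median difference -0.45), 5 and 2 at 24 h, 6 and 2 at 28 h, 4 and 3 at 48 h and 5 and 5 at 72 h. Of all genes 34.5%, 35.5%, 34.4%, 34.4%, 33% and 36.8% were lower at these times and 23.6%, 28.7%, 24.8%, 28.4%, 24.2% and 23.4% higher. The stroma counts from 24 h on lay near that background. The summed intensity of the 14 stroma genes was 19130 to 24765 in uterus controls and 16397 to 27502 in EE arrays, and none of the 14 was blank on all uterus arrays. The part of stroma in the Serping1 and C1s differences was not tested.

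Control levels of 3 of 6 members differed between times in uterus, against 30% of all genes. These were Serping1 (limma F test, adjusted p = 1.29e-09), C1s (0.0206, group means 389 to 506) and C1qb (0.0168, group means 82.4 to 128). The call of C1qb rested on Control 72 h array 73, which read 164, and without it the adjusted p was 0.1.

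Cd55 encodes decay-accelerating factor, a membrane protein that breaks up the C3 convertases on the body's own cells. It has the gene ID 64036 and 2 probe sets, and lies on the minus strand of chromosome 13 (GRCr8, 44409574 to 44438913). The probe set with the higher mean has a value on all 100 arrays and stands for the gene. Over 67 uterus arrays the 2 probe sets correlated at r = 0.97. The 250 bases before the start in the RefSeq table are printed for comparison with C3, since both genes rose after EE, and capitals mark a motif match as above. The annotated gene reaches beyond the start used there.

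Cd55, chr13:44438102-44438351, minus strand: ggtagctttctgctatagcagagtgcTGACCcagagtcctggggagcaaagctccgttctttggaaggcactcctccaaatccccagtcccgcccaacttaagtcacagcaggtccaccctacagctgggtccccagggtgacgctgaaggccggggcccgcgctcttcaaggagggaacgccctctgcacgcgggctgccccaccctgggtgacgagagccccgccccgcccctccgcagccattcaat

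Here the half-site GGTCA had 1 match, 224 to 220 bases before the start and again as its reverse complement, and the full element, C/EBP, AP-1 and TATA letters had none.

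Cd55 rose late. Its uterus controls ran from 49.8 to 104. At 28 h the EE arrays read 74.8, 200, 213, 97.8 and 86.0 against controls of 70.8 to 91.6. Arrays 56 and 57 were high, the reading of 97.8 lay just above the controls, and 74.8 and 86.0 lay among them. At 48 h the EE arrays read 364, 457, 749, 147 and 677 against controls of 74.0 to 86.4, and at 72 h 422, 558, 605, 415 and 788 against 55.8 to 103. Groups did not overlap at 48 and 72 h, and EE 48 h array 71 was the lowest of its group, as it was for C3.

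The difference of Cd55 was 2.03 ± 0.21 at 48 h (limma, adjusted p = 1.10e-12) and 2.38 ± 0.21 at 72 h (2.43e-15), folds of 4.09 and 5.21 on the same scale, which ranked 27 of 7031 and 17 of 6823. At 28 h it was 0.47 ± 0.21 (0.0466). That call was lost without Control array 49, 50, 51 or 53 or EE array 56 or 57 (0.30 to 0.49, adjusted p up to 0.219), with an offset of 100 in place of 30.4 (0.0699), with blanks filled (0.0549) and with only the 2 groups in the fit (0.0584). The second probe set gave 0.50 at 28 h (adjusted p = 0.00751), 2.13 at 48 h (1.02e-16) and 2.90 at 72 h (1.74e-22). From 2 to 24 h the values of the first probe set lay between -0.37 and -0.13 and did not pass. Those of the second were 0.01 at 2 h, -0.09 at 4 h, -0.23 at 8 h and 0.23 at 24 h, and did not pass either. Deviations from group means correlated weakly with the epithelium list (r = 0.29, permutation, adjusted p = 0.0261, 70 arrays). The relation rests on the 2 arrays farthest from the median of the list, without which r was 0.14 (adjusted p = 0.344), and rho was 0.18 (adjusted p = 0.222).

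**Figure D3:**
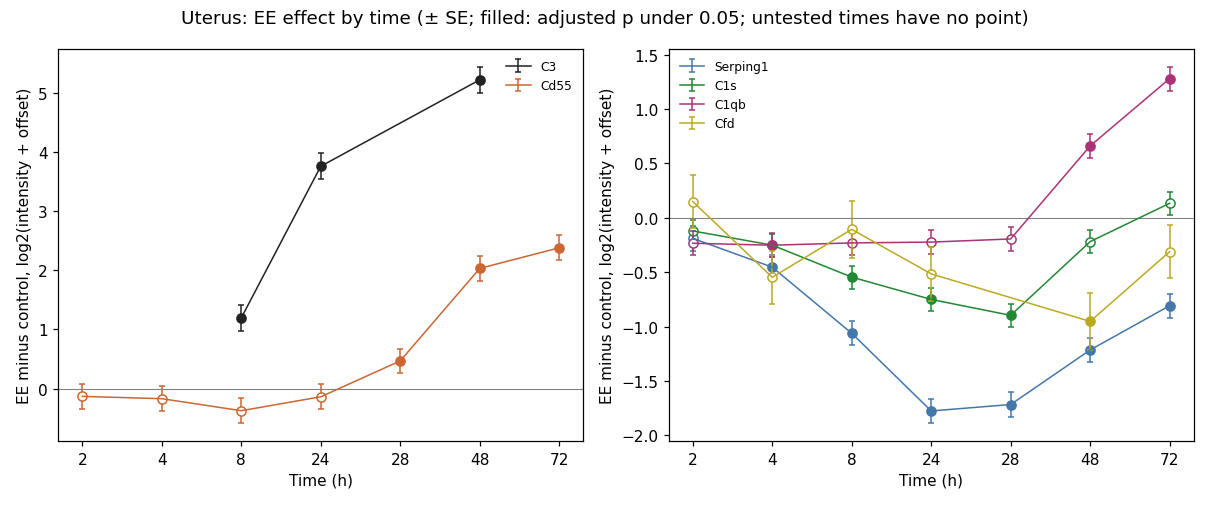
EE minus control in uterus on the log2(intensity + 30.4) scale, ± SE, at evenly spaced times, with filled points where the adjusted p was under 0.05 and no point where a test lacked values. C3 and Cd55 (left) rise to 5.22 at 48 h and 2.38 at 72 h, while Serping1 and C1s (right, with C1qb and Cfd) fall to -1.78 at 24 h and -0.90 at 28 h and then return, and C1qb turns from -0.19 at 28 h to 1.28 at 72 h.

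The EE effect differed between times for 5 of 6 members (limma F test, adjusted p at most 2.26e-08), against 76.7% of all genes. Cfd did not pass (0.0747). Without any 1 of 6 single arrays (Control 2 h arrays 2 and 6, Control 4 h array 18, Control 48 h array 62, EE 2 h arrays 10 and 12) it did, with an adjusted p as low as 0.00858. A turn in 4 members came between 28 and 48 h. There the effect became more positive in all 4 members that could be tested, by 0.50 ± 0.16 for Serping1 (adjusted p = 0.0128), 0.68 ± 0.15 for C1s (3.42e-04), 0.86 ± 0.16 for C1qb (1.98e-05) and 1.56 ± 0.30 for Cd55 (3.87e-05), where 12.8% of all genes became more positive. C3 and Cfd lacked values for this step. Where 2 values a group were enough, C3 changed by 0.98 (limma, adjusted p = 0.0288) and Cfd by -0.61 (0.297). With blanks filled, C3 changed by 1.04 (limma, adjusted p = 5.91e-04) and Cfd by -0.47 (0.366). Earlier steps went apart. Serping1 became lower by 0.61 ± 0.16 from 4 to 8 h (0.00356) and by 0.71 ± 0.16 from 8 to 24 h (1.44e-04), while C3 became higher by 2.57 ± 0.31 from 8 to 24 h (6.65e-09). Of all genes 19.5% passed at the former step (10.3% lower) and 46.2% at the latter (23.6% higher, 22.6% lower). Between 48 and 72 h 1 of 5 tested members passed, C1qb with 0.62 ± 0.16 (0.0397), where 0.505% of all genes did (0.223% higher, 0.282% lower). That call was lost without any 1 of 10 single arrays (adjusted p up to 0.12), with an offset of 1 (0.115) and after quantile normalization (0.107). No member passed from 2 to 4 h or from 24 to 28 h, where 32.9% and 8.26% of genes did (5.09% higher and 3.17% lower at the latter). At an unadjusted p under 0.05, limma had 2 members there, Cfd from 2 to 4 h and Cd55 from 24 to 28 h.

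Over group means in uterus, Serping1 went with C1s, and Cd55 with C1qb and C3. Pearson r of the 14 group means was 0.89 between Serping1 and C1s, 0.88 between Cd55 and C1qb, and 0.81 between C3 and Cd55 over the 10 groups with 3 values of C3. These are descriptions over groups that share treatment and time. Within groups Serping1 and C1s went together weakly (r = 0.27, rho = 0.26, 70 arrays, permutation, adjusted p = 0.0378 and 0.0585), a correlation added after the data were seen. Without the 2 farthest arrays r was 0.22 (adjusted p = 0.108). Within groups Cd55 was not shown to follow C3 (r = 0.26, rho = 0.14, 48 arrays, permutation, adjusted p = 0.105 and 0.399).

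The genes most like each member in their uterus group means were found by Pearson r over the groups where both had at least 3 values. For C3 they were Anxa2 (0.992), S100a10 (0.992), Ceacam1 (0.991), Tapbp (0.990) and Slc44a4 (0.989), over 10 groups. For Cd55 they were RT1-DMb (0.977), Cd53 (0.974), Arl11 (0.973), Evi2b (0.972) and Rac2 (0.969), over 10 to 14 groups. For C1qb they included C1qc (0.954, 14 groups) and C1qa (0.944, 14 groups), which encode the other chains of C1q, beside Cish, Ifi30 and Rab3il1. Serping1 was most like Efhd1 (0.973, 12 groups), Mn1, Efcab2, Amigo1 and Fgl2. C1s was most like Efcab2 (0.970, 11 groups), Efhd1, Slc15a2, Abcg1 and Mn1, so that Efhd1, Efcab2 and Mn1 stood in both lists. Cfd was most like Nipsnap2 (0.906, 13 groups), Atp2b2, Zmiz2, Efs and Fbln2.

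The other genes of the pathway were taken from a list of 58 complement genes, of which 34 are on the array, members included. In uterus the number higher and lower after EE was 0 and 1 of 21 tested at 2 h, 1 and 11 of 20 at 4 h, 2 and 9 of 20 at 8 h, and 3 and 9 of 20 at 24 h. It was 3 and 11 of 17 at 28 h, 8 and 5 of 20 at 48 h, and 9 and 4 of 19 at 72 h. Its median difference was -0.28 at 28 h, 0.06 at 48 h and 0.26 at 72 h, against -0.04, -0.05 and -0.07 over all genes. Of all genes 4.01%, 23.6%, 28.7%, 24.8%, 28.4%, 24.2% and 23.4% were higher at 2, 4, 8, 24, 28, 48 and 72 h. Those lower were 2.38%, 34.5%, 35.5%, 34.4%, 34.4%, 33% and 36.8%.

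Among these genes, C1qa and C1qc, with C1qb the chains of C1q, were lower at 24 h (-0.56 and -0.40) and 28 h (-0.56 and -0.47) and higher at 72 h (1.26 and 1.08), while at 48 h their values of 0.04 and 0.08 did not pass. C1r, the partner protease of C1s, was lower at 2, 4, 8 and 28 h, by -0.77 at 8 h, and higher at 48 h (0.31) and 72 h (0.26). Masp1, a protease of the lectin pathway, was lower at all 6 times from 4 to 72 h, with a difference of -1.48 ± 0.11 at 28 h (limma, adjusted p = 4.22e-19). Clu, which encodes clusterin, a soluble inhibitor of the lytic complex, was lower at the same 6 times and by -1.55 ± 0.12 at 72 h (4.06e-17), with means of 122 ± 9 in EE arrays and 420 ± 72 in controls (SD, n = 5). Colec12, a collectin, was lower at these times as well, from -0.84 at 8 h to -0.20 at 48 h.

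C5ar1, the receptor for the C5a fragment, was higher at 24 h (0.29), 48 h (0.93) and 72 h (0.73), and it is also on the macrophage list. C3ar1, the receptor for the C3a fragment, was higher at 28 h (0.16), 48 h (0.33) and 72 h (0.46). Cd59b, of the family that blocks the lytic complex on the body's own cells, was lower at 4 h (-0.51), 8 h (-0.78) and 28 h (-0.26) and higher at 48 h (0.39) and 72 h (0.82). C1qbp, a C1q-binding protein best known from mitochondria, was higher from 4 to 48 h, by 1.01 ± 0.07 at 8 h (4.50e-20). Susd4 was lower from 4 to 28 h by at most -0.24, and Fcna, a ficolin, was lower at 4 h (-0.22) and 24 h (-0.24) and higher at 72 h (0.47).

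**Figure D4:**
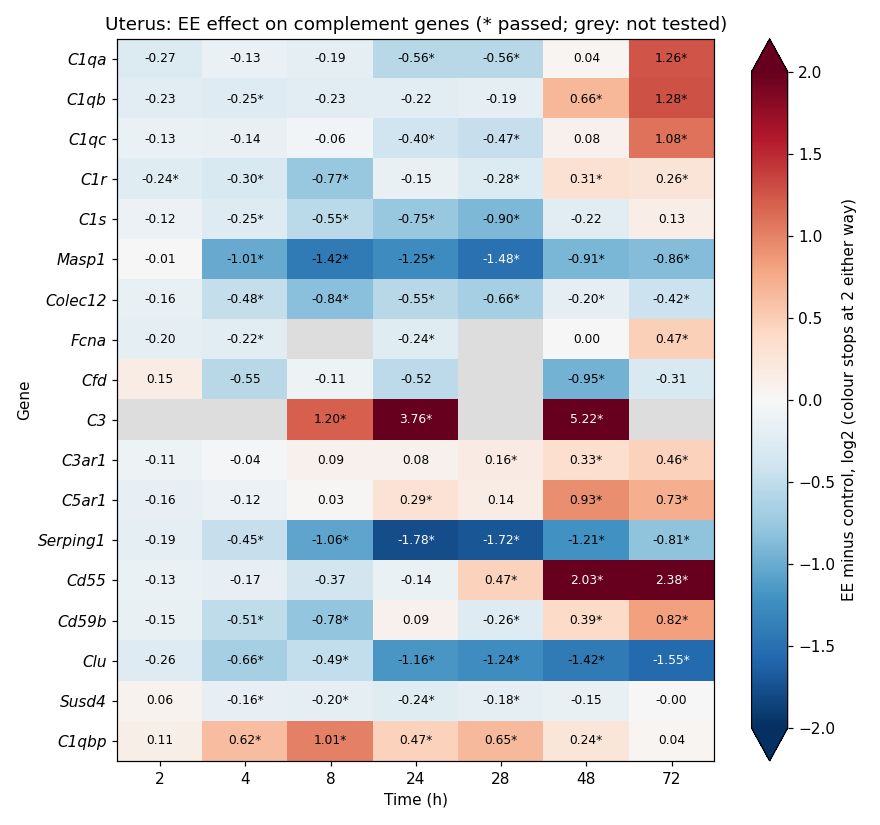
EE minus control in uterus (log2 of intensity + 30.4) for the 6 members and the 12 other complement genes named, by time, with an asterisk where the adjusted p was under 0.05 and grey where a test lacked values. The colour stops at 2 either way, so C3 (5.22 at 48 h) and Cd55 (2.38 at 72 h) lie beyond it, and the rows of Serping1, Masp1 and Clu are lower from 4 to 72 h.

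In the pituitary, C3 was blank on 13 of 15 control and 14 of 15 EE arrays, Cfd on 29 of 30 and the second probe set of Cd55 on all 30. The 3 values of C3 were 35.4 and 34.2 in controls at 4 and 24 h and 45.9 after EE at 24 h, and the 1 value of Cfd was 44 on EE 24 h array 44. C1qb was blank on 9 of 30 arrays, 3 of control and 6 of EE, and ran from 54.9 to 113. The first probe set of Cd55 ran from 19.6 to 37.4 in controls and from 21.3 to 40.3 after EE.

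No member passed in the pituitary. Of 30 comparisons 18 could be tested and 12 lacked values, and with limma 0 passed, also 0 at an unadjusted p under 0.05 (lowest p 0.0802, lowest adjusted p 0.335). The background there was low as well, with 1.49%, 3.56%, 0.0875%, 0.321% and 2.72% of all genes passing at 4, 8, 24, 48 and 72 h. Differences lay between -0.22 (Serping1 at 48 h) and 0.33 (C1qb at 8 h). The SE was 0.32 for C1s, 0.22 for Serping1 and 0.09 for Cd55. A pass after adjustment needs a difference larger than its SE. The tests therefore do not exclude changes of the size of these errors, or changes somewhat above them. The values of Cd55 lay near the offset, which makes its differences and SE smaller. The EE effect between times passed for 0 of 4 members tested, and the controls between times for 0 of 4 (limma F test, 0 at an unadjusted p under 0.05 in both), where 1.05% and 1.42% of all genes passed.

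Serping1 and C1s were far higher on 3 pituitary arrays than on the rest. Control 4 h array 17 read 251 for Serping1 and 332 for C1s, EE 4 h array 23 read 299 and 294, and EE 24 h array 44 read 338 and 350, while the other 27 arrays read 96.2 to 207 and 69.1 to 165. The same arrays were high in stroma genes. The summed intensity of 14 stroma genes on them was 5357, 7265 and 8197, against 2223 to 4565 on the others. Without these 3 arrays, an alternative added after the data were seen, 0 members passed in the pituitary as before. Deviations from group means correlated at r = 0.89 between Serping1 and C1s over 30 arrays and at r = 0.86 and 0.87 between these genes and the stroma list (permutation, adjusted p = 2.17e-05 each). Without the 3 arrays r was 0.78, 0.70 and 0.72 over 27 arrays. C1qb followed the macrophage list in the pituitary too, with r = 0.86 over 19 arrays and 0.83 without the 3. In uterus neither Serping1 (r = 0.11) nor C1s (r = 0.06) was shown to follow the stroma list (adjusted p = 0.453 and 0.635). Whether the correlations differ between tissues was not tested.

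**Figure D5:**
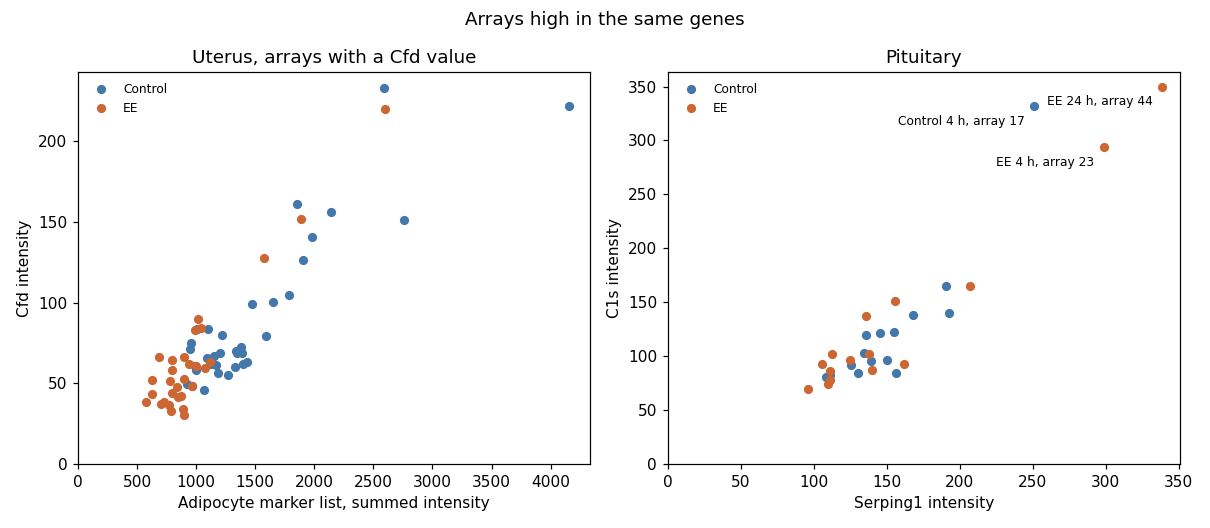
Left, Cfd intensity against the summed intensity of 14 adipocyte genes on the 65 uterus arrays with a value of Cfd; right, C1s against Serping1 intensity on the 30 pituitary arrays, each point an array, Control in blue and EE in orange. Arrays high in adipocyte genes are high in Cfd in both treatments, and 3 pituitary arrays lie apart with Serping1 at 251 to 338 and C1s at 294 to 350.

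The tissues were compared in a fit of all 100 arrays. The 3′ to 5′ difference of Actb was 0.07 to 1.09 in uterus and 1.23 to 1.86 in pituitary. That of Gapdh was 0.12 to 0.95 in uterus and -0.38 to 0.02 in pituitary. The part of this quality difference in the tissue results was not tested. In controls 17 of 20 tested differences were higher in uterus than in pituitary, where 70.5%, 69%, 70.6%, 69.6% and 71.3% of all genes passed in either direction at 4, 8, 24, 48 and 72 h and 30.9% to 32.3% were higher in uterus. Serping1 was higher by 0.73 at 4 h to 2.11 at 72 h, C1s by 1.07 to 2.04 and Cd55 by 0.70 to 1.02, at all 5 times. C1qb was higher at 24 h (0.29, limma, adjusted p = 0.0467) and 72 h (0.65, 9.46e-05). The 24 h call of C1qb was lost with blanks filled (0.175), with an offset of 100 (0.071) and without any 1 of 5 single arrays.

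The EE effect differed between tissues in 10 of 18 tests, where 33.8%, 48%, 40.1%, 36.4% and 38.6% of all genes passed at 4, 8, 24, 48 and 72 h (14.5% to 22.5% higher and 18.6% to 25.5% lower in uterus). It was higher in uterus for Cd55 at 48 h (1.93 ± 0.30, limma, adjusted p = 2.73e-07) and 72 h (2.41 ± 0.30, 4.57e-10). It was lower in uterus for Serping1 at all 5 times, from -0.59 ± 0.22 at 4 h (0.0305) to -1.89 ± 0.22 at 24 h (7.28e-11), for C1s at 8 h (-0.69 ± 0.27, 0.0294) and 24 h (-1.0 ± 0.27, 0.00196), and for C1qb at 8 h (-0.56 ± 0.21, 0.0237). Several of these rest on single pituitary arrays. Without EE 24 h array 44 the C1s value at 24 h was -0.55 (0.0896). Without EE 4 h array 23 the Serping1 value at 4 h was -0.35 (0.253), and 5 other single arrays also ended that call. Without all 3 pituitary arrays that stood apart, 10 of the 18 tests passed as before, the C1s value at 24 h (-0.55) and the Serping1 value at 4 h (-0.54) among them. The C1s call at 8 h was lost without pituitary array 28, 30 or 32 (adjusted p up to 0.135), and the C1qb call at 8 h with blanks filled (-0.45, 0.174). C3 and Cfd could not be tested between tissues, nor could C1qb at 48 and 72 h, where 2 of 3 pituitary EE arrays were blank. With blanks filled at 30.4, the difference between tissues was 1.08 at 8 h, 3.67 at 24 h, 5.23 at 48 h and 5.85 at 72 h for C3. The same filling gave 0.98 at 48 h (limma, adjusted p = 0.00275) and 1.55 at 72 h (1.98e-06) for C1qb. For Cfd it gave -1.01 at 48 h (0.0203).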

How the data were processed

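Total RNA was purified with the RNAeasy Mini kit and 5 µg of it, given a biotin label, was used for each RAE230A array, per the labels' protocols. The deposited values are linear intensities per probe set, as the authors' table gives them. How they were summarised, scaled and left blank is not given in the sources used here, and their number of arrays limits the precision. Gene names came from GEO's platform annotation, and 12783 of 15923 probe sets had a single gene, 312 had several. Columns were mapped to groups through the labels. Array numbers are those of the sample titles.

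From these, log2(intensity + 30.4) was computed, with the offset 30.4 set at the 10th percentile of the table. Blanks were left out. Of several probe sets of a gene the one with the highest mean (blanks as 0) was used, which gave 10411 genes. A mean per group was fitted per tissue under R 4.3.3 with limma 3.58.1 (squeezeVar), and over all 100 arrays between tissues. Tests were two-sided with Benjamini-Hochberg adjustment over all genes tested. Tests over times used an F statistic. The fit was tested on simulated data.

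Named beside the members were complement genes that passed at 3 or more uterus times, at most 12, and the 5 genes most like each member. Cell type lists were adipocytes, macrophages, granulocytes and mast cells, lymphocytes, epithelium, stroma, smooth muscle, endothelium, red cells, hepatocytes, pituitary hormone cells, and neural lobe and glia. The members, lists and tests were chosen with earlier results of these data known. Positions and sequences come from RefSeq (GRCr8), read by symbol. No build of the array's design was used. Alternatives were other offsets, scalings, blank rules and probe sets, a filter on low values, a fit of only the groups compared, an array number block and leaving out each array.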

Additional observations from a re-analysis of the deposited data

Results flagged for a closer look

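Of 90 groups of 4 or 5 uterus values examined for the members, 5 held an array far from the others of its group by Dixon's test at the 95% level, and chance alone flags about 1 group in 20. C3 read 1486 on EE 48 h array 71, against 2395 to 2627 on the other arrays. On EE 72 h array 84 it read 4871, against 3212 to 3379. Array 84 was also high in the second probe set of Cd55, at 1057 against 480 to 614. The first probe set of Cd55 read 109 on EE 24 h array 45, against 52 to 68. C1s read 348 on Control 8 h array 30, against 443 to 474. On the arrays flagged for C3, the summed intensity of the epithelium list was 6310 (array 71, the lowest of its group) and 11610 (array 84, the highest of its group). The part of this in the C3 values was not tested.

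EE effects that differed between times or tissues were flagged as well, each by the test of the difference itself (limma). The range of the EE effect over the tested uterus times was 4.03 for C3 (1.46 at the lowest, where leaving out 1 array removed a time), 2.76 for Cd55, 1.59 for Serping1, 1.53 for C1qb and 1.03 for C1s on the log2 scale. Between consecutive times the effect of Serping1 changed by -0.61 from 4 to 8 h, by -0.71 from 8 to 24 h and by 0.50 from 28 to 48 h. That of C3 changed by 2.57 from 8 to 24 h. From 28 to 48 h Cd55 changed by 1.56, C1qb by 0.86 and C1s by 0.68, and C1qb by 0.62 from 48 to 72 h.

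Between uterus and pituitary the effect of Serping1 differed by -0.59 at 4 h, -1.02 at 8 h, -1.89 at 24 h, -1.0 at 48 h and -0.69 at 72 h. That of Cd55 differed by 1.93 at 48 h and 2.41 at 72 h. That of C1s differed by -0.69 at 8 h and -1.0 at 24 h, and that of C1qb by -0.56 at 8 h. The adjusted p of each stands beside its value in the results above, or, for Serping1, was 6.78e-05 at 8 h, 2.08e-04 at 48 h and 0.00852 at 72 h.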

How the results depend on the processing

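No value that passed reversed its sign under any alternative run. With values required on every array, uterus tests passed higher fell from 8 to 5, since C3 could not be tested, and with blanks filled, tissue differences rose from 10 to 16. For Cd55 and epithelium, r of 0.29 became rho 0.18, or r 0.14 without the 2 farthest arrays. Leaving out each array in turn gave 7 to 8 higher and 10 to 14 lower in uterus, 0 in pituitary, 5 to 6 members whose effect differed between times and 7 to 9 consecutive steps. It gave 2 to 3 for controls between times, 8 to 12 for tissue differences, 16 to 18 for tissues in controls and 12 to 15 for steps of EE arrays. The labels do not say whether an array number shared by tissues marks 1 animal, and of 27 pairs 8 had deviations that correlated over 0.1 (median 0.0705, -0.0646 to 0.162), so arrays were not paired. With the number as a replicate block 11 tissue differences passed (10 without), as C1qb at 24 h (-0.47, adjusted p = 0.047) joined, and 17 in controls. Centring arrays moved the share of higher genes among all that passed from 41.9% to 52.9% at 24 h, from 42.3% to 57% at 48 h and from 38.9% to 56.4% at 72 h in uterus, and from 48.7% to 58.8% at 8 h in pituitary. Quantile normalization moved it from 62.8% to 76.7% at 2 h in uterus, and from 48.7% to 38.2% at 8 h and 64.6% to 54.6% at 72 h in pituitary. With only the 2 groups in the fit, Cd55 and C1qb at 8 h (-0.37 and -0.23) and C1qb and Cfd at 24 h (-0.22 and -0.52) also passed. Blanks limit what can be said of low values: the level of C3 on blank control arrays is unknown.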

Other observations

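Marker lists not described above moved in uterus as follows at 72 h after EE, when 23.4% of all genes were higher and 36.8% lower. Of 9 endothelium genes tested 0 were higher and 6 lower (median -0.69), of 14 smooth muscle genes 9 were higher and 1 lower (median 0.30), and of 3 lymphocyte genes 1 was higher. Of 2 granulocyte and mast cell genes 0 passed, and of 2 red cell genes 2 were lower. Liver makes most circulating complement, and of 10 hepatocyte genes 5 were blank on all uterus arrays, with a summed intensity of 0 to 467 for the list. Neural lobe and glia genes summed to 209 to 1240 in the pituitary, the highest on Control 4 h array 17.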
